A study of Mus musculus with 20 samples.

Results

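NF-kB is a family of transcription factors whose subunits are encoded by Nfkb1, Nfkb2, Rel, Rela and Relb, and whose regulators include the products of Nfkbia, Nfkbib, Nfkbie, Nfkbiz and Tnfaip3, grouped here as inhibitors although the product of Nfkbiz can also activate genes. These 10 genes were followed here in mouse embryonic fibroblasts, cells grown out of mouse embryos. All non-control array probes whose accession RefSeq assigns to 1 of the 10 genes were taken, which gave 10 probes of 9 genes, among 41174 probes on the array. Nfkb1 had no such probe and was not analysed here, and Rela had 2 probes. The single Rel probe was not well above background on any of the 20 arrays, so that 9 probes of 8 genes were tested, among 20226 genes tested in all.

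Serum of female mice of the inbred strain C3H/HeN was given to the fibroblasts for 24 hours. Their RNA carried the dye Cy3 on Agilent arrays of 1 colour. There were 4 groups of 5 arrays: 8 Gy serum (mice irradiated with 8 Gy, 20-day set), control serum of the 20-day set (0 Gy), 4 Gy serum (mice irradiated with 4 Gy, 10-day set) and control serum of the 10-day set (0 Gy). The irradiation regime is written L/MDR in the labels and is not expanded there, and the labels do not say what the days count. Dose and set change together, so the response to 8 Gy serum and the response to 4 Gy serum differ in both, and the 2 sets were scanned on different days. The labels do not state whether the arrays of a group stand for separate cultures or donors of serum, so each p-value measures only the spread between arrays, which may be technical. Signals below are log2 values of the processed intensity less that array's 75th percentile, so a value of 0 means a signal as bright as that percentile. Such signals compare groups for 1 probe and do not rank different genes.

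In resting cells NF-kB dimers are kept in the cytoplasm by the IkB proteins, and the IkB kinase complex marks these for destruction when cytokines or microbial products reach their receptors. The freed dimers enter the nucleus and bind short DNA elements called kappa B sites. Several genes for subunits and inhibitors carry such sites themselves, which gives the pathway its feedback, and in fibroblasts it drives chemokines, matrix proteases and acute phase proteins.

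The promoters are shown because those of several NF-kB genes hold the element that NF-kB itself reads. RefSeq windows (build GRCm38.p6, 250 bases before to 50 bases from the start site) were listed for 7 of the 10 genes, 10 windows in all. The kappa B consensus (10 bases, searched on both strands) matched in 7 of the windows and in 5 of the 7 genes: Nfkb2, Rel, Nfkbia, Nfkbie and Tnfaip3. Of all 32851 RefSeq windows of that length 8.46% held a match, and of 27025 genes 9.55%. The consensus reads nearly the same on both strands, so matches shifted by 1 base overlap. Capitals mark the matches in the windows below, each printed 5′ to 3′ along the strand of its gene.
Nfkb2, upstream start, chr19:46304487-46304786, + strand: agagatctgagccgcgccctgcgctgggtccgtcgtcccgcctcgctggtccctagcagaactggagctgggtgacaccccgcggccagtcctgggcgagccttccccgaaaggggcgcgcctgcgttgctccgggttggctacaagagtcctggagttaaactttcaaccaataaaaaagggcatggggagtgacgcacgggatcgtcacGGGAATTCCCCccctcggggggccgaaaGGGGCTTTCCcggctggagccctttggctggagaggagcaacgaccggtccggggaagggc
Nfkb2, second start, chr19:46305445-46305744, + strand: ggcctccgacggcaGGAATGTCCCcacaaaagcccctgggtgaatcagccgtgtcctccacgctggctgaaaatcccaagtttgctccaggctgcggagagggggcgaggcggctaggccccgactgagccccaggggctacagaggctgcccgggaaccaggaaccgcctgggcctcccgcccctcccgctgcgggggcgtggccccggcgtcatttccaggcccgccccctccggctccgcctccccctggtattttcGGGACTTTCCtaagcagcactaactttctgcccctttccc
Nfkbia, chr12:55492598-55492897, − strand: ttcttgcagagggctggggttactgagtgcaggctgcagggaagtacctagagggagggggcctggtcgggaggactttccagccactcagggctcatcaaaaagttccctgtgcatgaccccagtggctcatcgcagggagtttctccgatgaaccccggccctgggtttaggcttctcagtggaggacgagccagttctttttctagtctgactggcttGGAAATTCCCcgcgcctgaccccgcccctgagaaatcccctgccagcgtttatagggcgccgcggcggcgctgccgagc
Nfkbie, chr17:45555450-45555749, + strand: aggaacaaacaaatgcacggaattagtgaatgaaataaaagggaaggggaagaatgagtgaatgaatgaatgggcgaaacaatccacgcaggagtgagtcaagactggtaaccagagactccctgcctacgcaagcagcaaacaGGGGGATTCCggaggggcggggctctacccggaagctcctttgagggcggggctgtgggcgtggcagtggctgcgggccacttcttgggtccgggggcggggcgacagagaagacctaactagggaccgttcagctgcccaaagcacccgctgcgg
Tnfaip3, first window, chr10:19015361-19015660, − strand: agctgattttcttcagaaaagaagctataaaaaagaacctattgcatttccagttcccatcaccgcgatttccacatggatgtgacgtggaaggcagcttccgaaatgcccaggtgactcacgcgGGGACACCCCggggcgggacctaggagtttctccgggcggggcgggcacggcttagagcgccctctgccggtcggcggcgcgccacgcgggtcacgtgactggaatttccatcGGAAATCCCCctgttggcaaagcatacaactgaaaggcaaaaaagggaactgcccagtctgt
Rela, chr19:5637291-5637590, + strand: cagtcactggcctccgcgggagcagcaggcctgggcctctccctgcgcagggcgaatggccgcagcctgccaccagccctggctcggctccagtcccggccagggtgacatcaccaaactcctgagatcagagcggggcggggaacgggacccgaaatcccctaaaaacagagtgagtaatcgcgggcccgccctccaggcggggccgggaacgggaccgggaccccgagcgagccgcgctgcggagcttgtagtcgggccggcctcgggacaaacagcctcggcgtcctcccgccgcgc
The Nfkb2 window at the upstream start held GGGAATTCCC beginning 39 bases before the start base and GGGGCTTTCC beginning 11 bases before it. The window at the second start held the site GGGACTTTCC, whose first base lies 10 bases after the start base. That exact 10-base site was found in 0.155% of all windows, and the third Nfkb2 window, which overlaps the second, held the same copy. The site was read from the Nfkb2 window before it was counted, so its share is a description only. In Nfkbia the match was GGAAATTCCC, 29 bases before the start base, and in Nfkbie it was GGGGGATTCC, 106 bases before it. The first Tnfaip3 window held GGAAATCCCC 12 bases before the start base and GGGACACCCC 125 bases before it. Rela and Nfkbib had no match in their windows, nor did a second Tnfaip3 window. A match describes letters and is not a measured binding site.

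With 8 Gy serum the 3 tested subunit genes were higher than with the control serum of the same set, a comparison in which 46.0% of all genes passed the test and 17.3% were higher. Nfkb2 was 1.67-fold higher, Rela 1.37-fold and Relb 1.25-fold, while 0 of the 5 inhibitor genes passed. The Relb call was lost with scaling to the array median and with the slide as a random block, and Nfkbia (higher) and Tnfaip3 (lower) passed under some other scalings. With 4 Gy serum, where 5.97% of all genes passed, 0 of the 3 subunit genes did and the inhibitor gene Nfkbie was 1.84-fold higher, a call that was lost once the slide was taken into account. Between the control groups, the 20-day control cultures had lower Nfkb2 and Rela signals and higher Nfkbia, Nfkbib, Nfkbie and Tnfaip3 signals than the 10-day control cultures, where 66.4% of all genes differed and the 14 macrophage markers were higher by a median log2 change of 4.23. The Tnfaip3 call there was lost with normexp background correction and with the slide as a random block. Every test is limma's, with Benjamini-Hochberg adjustment across all tested genes and a threshold of 0.05, and each error of a log2 change is the standard error of the fit with 5 arrays per group.

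**Figure D1:**
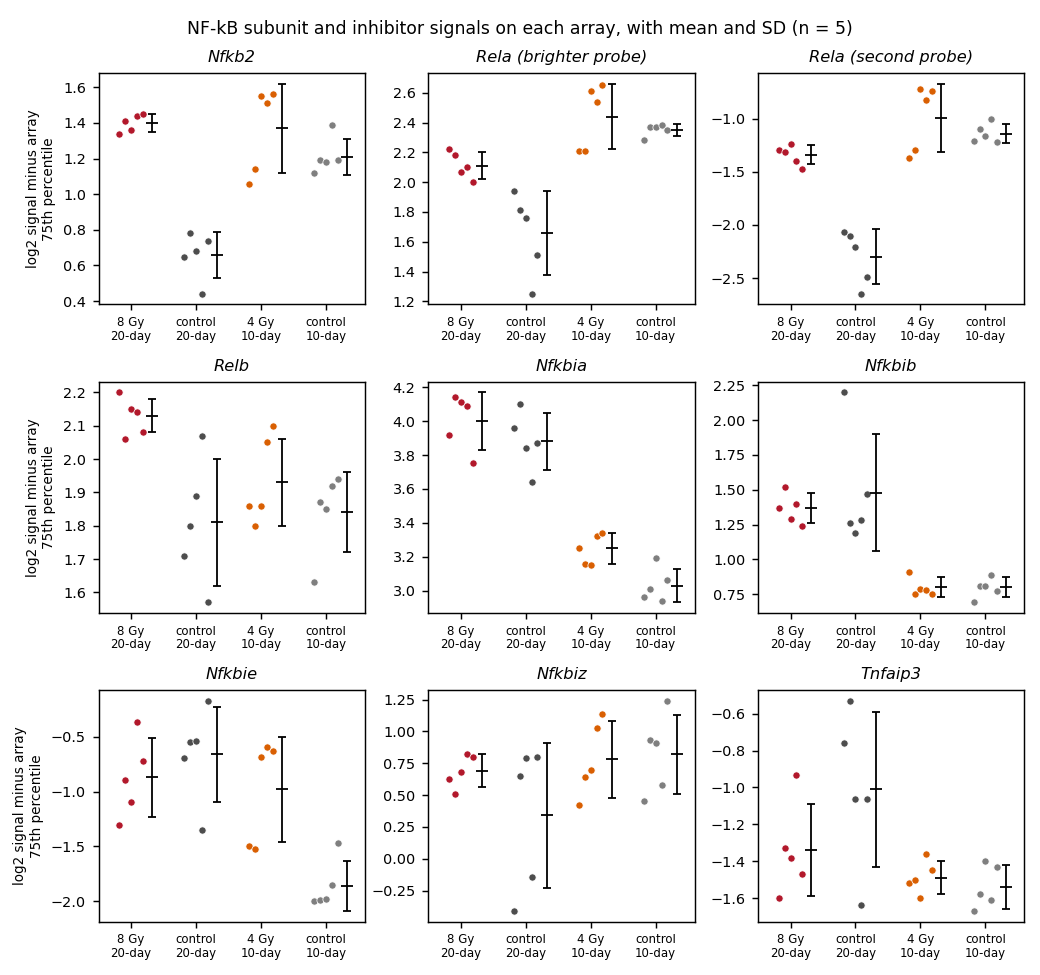
Log2 signal minus the 75th percentile of the array (vertical axis) of each tested NF-kB probe on every array of the 4 serum groups (horizontal axis). Points are arrays, and the bar beside them is the mean with its SD (n = 5). The 20-day control cultures are the lowest group for Nfkb2 (0.44 to 0.78) and for both Rela probes.

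Nfkb2 encodes the p100 precursor, which is cut to the p52 subunit and in its uncut form holds RelB back. Its signal was 1.34, 1.41, 1.36, 1.44 and 1.45 in the 8 Gy serum cultures, against 0.65, 0.78, 0.68, 0.44 and 0.74 in the 20-day control cultures. All 5 arrays of 8 Gy serum lay above all 5 control arrays, which held for 9.12% of all genes in that direction. The log2 change was 0.74 ± 0.10 (adjusted p = 9.74e-06). In the 10-day set the signal was 1.06, 1.14, 1.55, 1.51 and 1.56 with 4 Gy serum, against 1.12, 1.19, 1.18, 1.39 and 1.19 with control serum. Those ranges overlapped, and the log2 change of 0.15 ± 0.10 did not pass (adjusted p = 0.397). Ordered by mean, the groups were 8 Gy serum (1.40 ± 0.05), 4 Gy serum (1.37 ± 0.25), 10-day control serum (1.21 ± 0.10) and 20-day control serum (0.66 ± 0.13; SD, n = 5 each). Only the last step of that order passed the test, since the 20-day control cultures were lower than the 10-day control cultures by a log2 change of −0.56 ± 0.10 (adjusted p = 6.09e-05), whereas 8 Gy and 4 Gy serum cultures differed by 0.03 ± 0.10 (adjusted p = 0.779).

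Rela encodes p65, the subunit that carries the activating domain of the most common NF-kB dimer. Its brighter probe gave 2.22, 2.18, 2.07, 2.10 and 2.00 with 8 Gy serum, against 1.94, 1.81, 1.76, 1.25 and 1.51 with 20-day control serum. The groups had no overlap, which held for 9.12% of all genes in that direction, and the log2 change was 0.46 ± 0.12 (adjusted p = 0.0034). The second probe gave −1.29, −1.31, −1.24, −1.40 and −1.47 with 8 Gy serum, against −2.07, −2.10, −2.21, −2.65 and −2.49 with 20-day control serum, again with no overlap. Its log2 change was larger, 0.96 ± 0.13 (adjusted p over all probes tested = 1.18e-05). The 2 probes thus had the same direction but different sizes. In the 10-day set the brighter Rela probe gave 2.21, 2.21, 2.61, 2.54 and 2.65 with 4 Gy serum, against 2.28, 2.37, 2.37, 2.38 and 2.35 with control serum. The control arrays lay within the range of the 4 Gy serum arrays, and neither probe passed (0.09 ± 0.12, adjusted p = 0.692, and 0.15 ± 0.13, adjusted p over all probes tested = 0.572).

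Relb encodes RelB, the partner of p52 in the noncanonical branch of the pathway. It had 2.20, 2.06, 2.15, 2.14 and 2.08 with 8 Gy serum, against 1.71, 1.80, 1.89, 2.07 and 1.57 with 20-day control serum. The groups touched through 1 control array at 2.07, and the log2 change was 0.32 ± 0.09 (adjusted p = 0.00721). With scaling to the array median that change was 0.18 (adjusted p = 0.111), and with the slide as a random block it was 0.32 (adjusted p = 0.076), so the Relb call was lost under both. Relb in the 10-day set had 1.86, 1.80, 1.86, 2.05 and 2.10 with 4 Gy serum, against 1.63, 1.87, 1.85, 1.92 and 1.94 with control serum, a log2 change of 0.09 ± 0.09 (adjusted p = 0.606). Rel, which encodes the c-Rel subunit best known from lymphocytes, had a probe signal between −8.97 and −6.75 on the 20 arrays, not well above background on any, and is given no fold change.

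Read against all genes, 3 of the 8 tested NF-kB genes were higher with 8 Gy serum, where 17.3% of all genes were, and 0 were lower, where 28.8% of all genes were. One of the 3 was Relb, whose call was lost with scaling to the array median (adjusted p = 0.111) and with the slide as a random block (adjusted p = 0.076). The median log2 change was 0.46 over the 3 subunit genes and −0.11 over the 5 inhibitor genes, and it was −0.09 over all genes tested. In the 10-day comparison 1 of the 8 was higher and 0 lower, where 5.97% of all genes passed, 4.5% higher and 1.47% lower. There the median log2 change was 0.09 over the subunit genes and 0.05 over the inhibitor genes, and it was 0.00 over all genes.

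Slide and serum overlapped only in part in the 10-day set. An Agilent slide carries several arrays, and in the 20-day set each slide held arrays of 1 group only, so slide and serum can be told apart there only through the spread between slides of a group. In the 10-day set 1 slide (slide 1) held 4 control arrays, slide 2 held 1 control array and 2 arrays of 4 Gy serum, and slide 3 held the other 3 arrays of 4 Gy serum. Nfkbie, which encodes IkB-epsilon, an IkB protein that retains Rela and c-Rel dimers, was the NF-kB gene called in the 10-day comparison. Its signal was −1.50, −1.52, −0.68, −0.59 and −0.63 with 4 Gy serum, against −2.00, −1.99, −1.98, −1.85 and −1.47 with control serum, a log2 change of 0.88 ± 0.23 (adjusted p = 0.0314). Within slide 2 the mean was −1.51 with 4 Gy serum and −1.47 with control serum, a difference of −0.04. On slide 3 the 4 Gy serum arrays averaged −0.63, which is 0.88 above those of slide 2. With the slide as a random block the log2 change was 0.57 (adjusted p = 0.598), and with the slide as a fixed block it was −0.04 (adjusted p = 0.892). Leaving out any 1 of control arrays 1 to 4 or of 4 Gy serum arrays 3 to 5 also ended the Nfkbie call, with adjusted p-values of 0.0607 to 0.111 and log2 changes of 0.78 to 0.88.

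**Figure D2:**
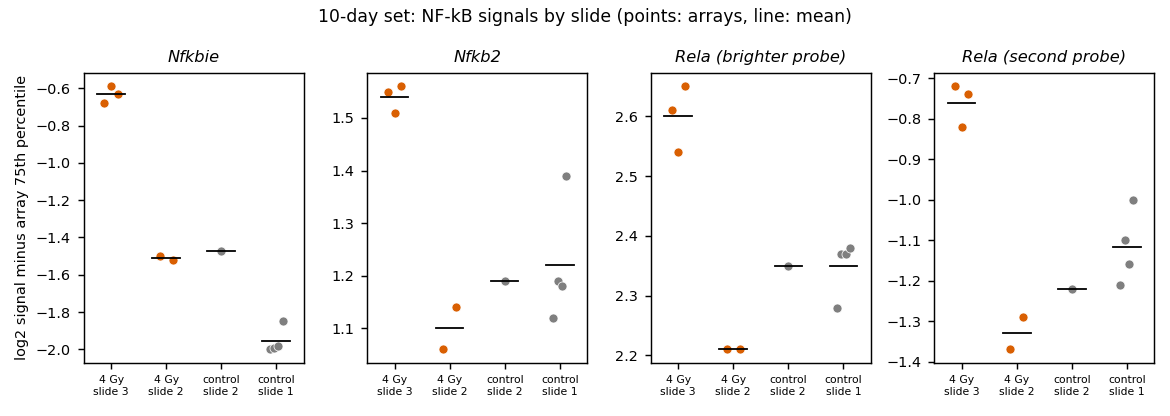
Log2 signal minus the 75th percentile of the array (vertical axis) in the 10-day set, by serum and slide (horizontal axis), with a point per array and a line at the mean. Nfkbie averages −0.63 in 4 Gy serum on slide 3 and −1.51 in 4 Gy serum on slide 2, close to the −1.47 of the control array on slide 2.

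The same split between slides was seen in 2 subunit genes within the 4 Gy serum group. Slide 3 exceeded slide 2 by 0.44 for Nfkb2, by 0.39 for the brighter Rela probe and by 0.57 for the second one, and for the inhibitor gene Nfkbiz by 0.43. Within slide 2 the 4 Gy serum cultures minus the control culture gave −0.09 for Nfkb2, −0.13 for Rela, −0.11 for Relb and −0.71 for Nfkbiz. Over all genes, 1 passed in the 10-day comparison with the slide as a random block, against 1208 without it, and none of the pathway genes reported further on as called with 4 Gy serum passed (adjusted p = 0.516 to 0.623 for Csf1, Tnfrsf1b, Traf2, Tlr4 and Tnfrsf11a). The share of the slide in these values was not tested apart from the fits with it as a block. In the 20-day set, slide means of Nfkb2 were 1.37 and 1.44 with 8 Gy serum and 0.70 and 0.59 with control serum, and with the slide as a random block Nfkb2 and Rela kept their calls (0.75, adjusted p = 0.000196, and 0.48, adjusted p = 0.0118).

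Among the other inhibitors, Nfkbia encodes IkB-alpha, the fast feedback inhibitor that NF-kB itself induces. Its signal was 3.92, 4.14, 4.11, 4.09 and 3.75 with 8 Gy serum, against 3.96, 4.10, 3.84, 3.64 and 3.87 with 20-day control serum. The groups overlapped, with a log2 change of 0.12 ± 0.09 (adjusted p = 0.301). That result depended on the scaling, since the log2 change was 0.25, 0.37 and 0.32 and passed (adjusted p = 0.0225, 0.00179 and 0.00413) with the percentile taken over probes above background on all arrays, with quantile normalization and with cyclic loess. In the 10-day set Nfkbia had 3.25, 3.16, 3.15, 3.32 and 3.34 with 4 Gy serum, against 2.96, 3.01, 3.19, 2.94 and 3.06 with 10-day control serum. The 4 Gy serum arrays lay above 4 of the control arrays and overlapped the remaining one, at 3.19, and the log2 change of 0.21 ± 0.09 did not pass (adjusted p = 0.178).

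Nfkbib encodes IkB-beta, a slower inhibitor. It had 1.37, 1.52, 1.29, 1.40 and 1.24 with 8 Gy serum, against 2.20, 1.26, 1.19, 1.28 and 1.47 with 20-day control serum. Control array 1 stood well above the other control arrays, and the log2 change was −0.11 ± 0.14 (adjusted p = 0.523). In the 10-day set Nfkbib had 0.91, 0.75, 0.79, 0.78 and 0.75 with 4 Gy serum, against 0.69, 0.81, 0.81, 0.89 and 0.77 with control serum, with a log2 change of 0.00 ± 0.14 (adjusted p = 0.993).

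In the 20-day set Nfkbie had −1.30, −0.89, −1.09, −0.36 and −0.72 with 8 Gy serum, against −0.69, −0.55, −0.54, −1.35 and −0.17 with control serum. The ranges overlapped almost wholly, and the log2 change was −0.21 ± 0.23 (adjusted p = 0.475).

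Nfkbiz encodes IkB-zeta, a nuclear cofactor that is induced by interleukin-1 and Toll-like receptor signals and helps switch on secondary inflammatory genes. Its signal was 0.63, 0.51, 0.68, 0.82 and 0.80 with 8 Gy serum, against −0.41, 0.65, 0.79, −0.14 and 0.80 with 20-day control serum. The control arrays split into 3 near the 8 Gy serum values and 2 far below them, and the log2 change of 0.35 ± 0.22 did not pass (adjusted p = 0.204). Its 10-day signal was 0.42, 0.64, 0.70, 1.03 and 1.14 with 4 Gy serum, against 0.45, 0.93, 0.91, 0.58 and 1.24 with 10-day control serum, a log2 change of −0.04 ± 0.22 (adjusted p = 0.949).

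Tnfaip3 encodes A20, a ubiquitin-editing enzyme that ends signalling upstream of the IkB kinase. Its signal was −1.60, −1.33, −1.38, −0.93 and −1.47 with 8 Gy serum, against −0.76, −0.53, −1.06, −1.64 and −1.06 with 20-day control serum. Control array 4 was the lowest of all 10, and the log2 change of −0.33 ± 0.16 did not pass (adjusted p = 0.0884). Without that array the log2 change was −0.49 (adjusted p = 0.00432), and without 8 Gy serum array 4 it was −0.44 (adjusted p = 0.0295). It also passed with scaling to the array median (−0.48, adjusted p = 0.02) and with quantile normalization (−0.39, adjusted p = 0.0499). Tnfaip3 in the 10-day set had −1.52, −1.50, −1.60, −1.36 and −1.45 with 4 Gy serum, against −1.67, −1.58, −1.40, −1.61 and −1.43 with 10-day control serum, and the log2 change was 0.05 ± 0.16 (adjusted p = 0.899).

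**Figure D3:**
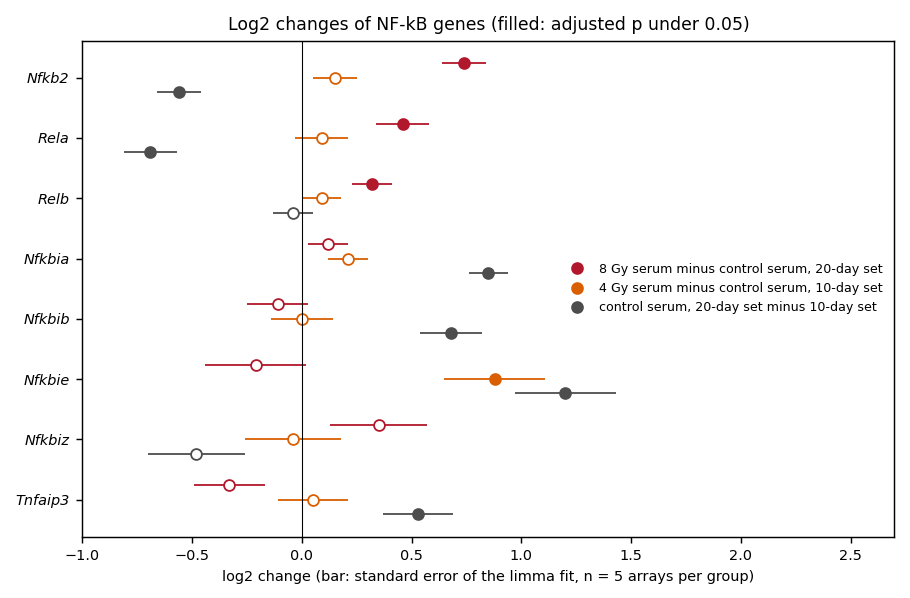
Log2 change (horizontal axis) of the 8 tested NF-kB genes (vertical axis) in 3 comparisons, with the standard error of the fit (n = 5 arrays per group); filled points have an adjusted p under 0.05. The 3 subunit genes are filled and to the right of 0 for 8 Gy serum, and Nfkbie is the filled gene for 4 Gy serum.

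Whether the 8 Gy and 4 Gy responses differed was tested in the same fit as the 8 Gy change minus the 4 Gy change. For Nfkb2 that difference was 0.59 ± 0.14 (adjusted p = 0.00332), the response being 0.74 in the 20-day set and 0.15 in the 10-day set. For Nfkbie it was −1.09 ± 0.33 (adjusted p = 0.0152), the responses being −0.21 and 0.88, and with the slide as a random block it was −0.74 (adjusted p = 0.217). Among all genes 34.2% passed this test, 12.2% upward and 22.0% downward, and 1 NF-kB gene passed in each direction. The brighter Rela probe did not pass (0.36 ± 0.16, adjusted p = 0.0943) while the second one did (0.81 ± 0.19, adjusted p over all probes tested = 0.00255). The differences of Relb (0.23 ± 0.13), Nfkbiz (0.38 ± 0.31), Tnfaip3 (−0.38 ± 0.22), Nfkbia (−0.09 ± 0.13) and Nfkbib (−0.12 ± 0.19) did not pass. Some of these results depended on the processing. Relb passed with normexp, cyclic loess and the percentile over probes above background on all arrays (0.35 to 0.51, adjusted p = 0.0348 to 0.0477). Rela passed with that percentile, quantile normalization, cyclic loess and the mean of its probes (0.42 to 0.59, adjusted p = 0.0128 to 0.0442). Rela also passed without 20-day control array 1 (0.43, adjusted p = 0.0352), and Tnfaip3 without array 4 (−0.54, adjusted p = 0.0228).

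Before the sets are compared, the markers of cell types are given, since they differed between them. All 12 fibroblast markers were well above background on every array, and their summed signal, relative to the 75th percentile, was 863 to 919 with 8 Gy serum and 746 to 879 with 20-day control serum, against 1090 to 1260 with 4 Gy serum and 1170 to 1290 with 10-day control serum. The 14 macrophage markers with a probe summed to 75.3 to 85.7 with 8 Gy serum and 86.1 to 107 with 20-day control serum, against 3.62 to 4.27 with 4 Gy serum and 2.74 to 3.94 with 10-day control serum. All 14 were higher in the 20-day than in the 10-day control cultures, where 37.0% of all genes were, with a median log2 change of 4.23. In each 10-day group 12 of the 14 were well above background on all arrays, while Spi1, a transcription factor that macrophages need, was so on none. With 8 Gy serum 6 of the 14 were lower than with 20-day control serum and 0 higher, where 28.8% and 17.3% of all genes were. Their median log2 change was −0.23, against −0.09 over all genes. In RNA of whole cultures, fewer cells of a type and less RNA per cell cannot be told apart. Lymphocyte and endothelial markers were dim, with sums over all 20 arrays of 0.051 to 0.17 for 8 lymphocyte markers and 0.127 to 0.498 for 6 endothelial markers. The 7 epithelial markers summed to 1.54 to 2.68. Among them the keratin gene Krt18 was nearly as bright as the 75th percentile, with group means of −0.15 to −0.05. The part of the cell content in the NF-kB values was not tested.

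**Figure D4:**
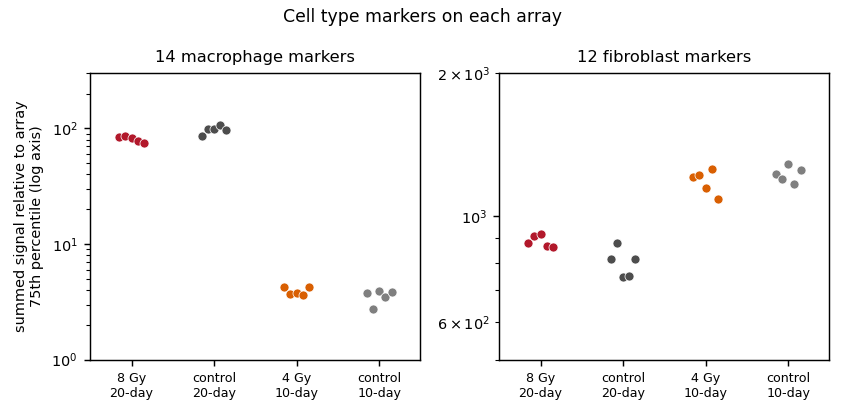
Summed signal of the macrophage markers and of the fibroblast markers over that percentile (vertical log axes) on each array of the 4 serum groups (horizontal axes). The macrophage sum is 75.3 to 107 on the arrays of the 20-day set and 2.74 to 4.27 on those of the 10-day set.

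The 20-day and the 10-day control cultures both had serum of non-irradiated mice, and 66.4% of all genes differed between them, 37.0% higher and 29.4% lower in the 20-day control cultures. Of the 8 tested NF-kB genes 4 were higher, all of them inhibitor genes, and 2 were lower, both of them subunit genes. Nfkbia was higher by a log2 change of 0.85 ± 0.09 (adjusted p = 1.28e-07), Nfkbib by 0.68 ± 0.14 (adjusted p = 0.000211), Nfkbie by 1.20 ± 0.23 (adjusted p = 0.000149) and Tnfaip3 by 0.53 ± 0.16 (adjusted p = 0.00605). For Nfkbia, Nfkbib and Nfkbie all 5 arrays of the 20-day control lay above all 5 of the 10-day control, which 28.2% of all genes did, whereas the Tnfaip3 groups overlapped. The Tnfaip3 call was lost with normexp background correction (0.16, adjusted p = 0.33) and with the slide as a random block (0.47, adjusted p = 0.0691). The log2 change of Rela was −0.69 ± 0.12 (adjusted p = 3.12e-05) by the brighter probe and −1.17 ± 0.13 (adjusted p over all probes tested = 2.55e-07) by the second one, and for both probes and Nfkb2 (−0.56 ± 0.10) all 5 arrays of the 20-day control lay below all 5 of the 10-day control, which 21.2% of all genes did. Relb, at −0.04 ± 0.09 (adjusted p = 0.741), and Nfkbiz, at −0.48 ± 0.22 (adjusted p = 0.059), did not pass. Both results depended on the processing. With the percentile taken over probes above background on all arrays, Relb (−0.21, adjusted p = 0.047) and Nfkbiz (−0.66, adjusted p = 0.0142) passed as lower. With cyclic loess they also passed (−0.24, adjusted p = 0.029, and −0.57, adjusted p = 0.0291). Relb passed with normexp too (−0.33, adjusted p = 0.0248), and Nfkbiz with quantile normalization (−0.52, adjusted p = 0.0405).

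Between the irradiated serum groups, 58.0% of all genes differed, 29.2% higher and 28.8% lower with 8 Gy serum than with 4 Gy serum. Nfkbia was higher by a log2 change of 0.76 ± 0.09 (adjusted p = 1.22e-06) and Nfkbib by 0.57 ± 0.14 (adjusted p = 0.00156), both with no overlap between the groups, as 26.0% of all genes had in that direction. Rela was lower, with a log2 change of −0.33 ± 0.12 (adjusted p = 0.0201), a call that was lost with scaling to the array median (−0.27, adjusted p = 0.0625), normexp (−0.27, adjusted p = 0.0537) and the slide as a random block (−0.30, adjusted p = 0.0717), and without 4 Gy serum array 3 (adjusted p = 0.0556) or 5 (adjusted p = 0.0599). Nfkb2, Relb, Nfkbie, Nfkbiz and Tnfaip3 did not pass, with log2 changes between −0.10 and 0.19. Relb passed as higher with scaling to the array median (0.25, adjusted p = 0.0237) and with only the groups compared (0.19, adjusted p = 0.0349). It also passed without 4 Gy serum array 5 (0.23, adjusted p = 0.0433). Since the 2 sets were scanned on different days, on different slides, the set and the scan cannot be told apart in either comparison between sets.

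Upstream of the NF-kB subunits, the kinase genes were split in the 8 Gy comparison: of 10 tested, 3 were higher and 2 lower, with a median log2 change of −0.02, where 17.3% of all genes were higher and 28.8% lower. These and the following counts take each gene by its brightest probe, and another probe could give another call, as it did for Ikbkg, the regulatory subunit of the IkB kinase complex (0.10, not passing, and −0.25, adjusted p over all probes tested = 0.0103). Genes named for such a disagreement between probes were chosen after their values were seen. Ikbkb, the catalytic IkB kinase of the canonical branch, had a log2 change of 0.91 ± 0.21 (adjusted p = 0.00167). Ikbke, a related kinase, had 0.85 ± 0.08 (adjusted p = 1.33e-07), and Map3k7, the kinase TAK1 that activates the IkB kinase complex, had 0.73 ± 0.13 (adjusted p = 0.000164). Chuk, the other catalytic IkB kinase, had −0.17 ± 0.06 (adjusted p = 0.0387) and −0.56 by another probe, and Tab3, a TAK1 partner, had −0.42 ± 0.12 (adjusted p = 0.00852). As with Nfkb2 and Rela, the group means of Ikbkb were lowest in the 20-day control cultures, at 0.70 with 8 Gy serum and −0.21 with 20-day control serum, against 0.87 with 4 Gy serum and 1.09 with 10-day control serum. None of the 10 kinase genes passed with 4 Gy serum, where 5.97% of all genes did.

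Of 21 adaptor genes, which link receptors to the kinases, 5 were higher and 2 lower with 8 Gy serum, against the same 17.3% and 28.8% of all genes, with a median log2 change of 0.12. They included Traf1 (0.79 ± 0.23, adjusted p = 0.00811), Irak4 (0.56 ± 0.16, adjusted p = 0.00816), Myd88, the shared adaptor of Toll-like and interleukin-1 receptors (0.37 ± 0.08, adjusted p = 0.000992), Tirap (0.30 ± 0.06, adjusted p = 0.00054) and Rbck1 (0.34 ± 0.11, adjusted p = 0.0192). Bcl10, an adaptor of the lymphocyte receptor pathway, was lower (−0.54 ± 0.09, adjusted p = 5.92e-05). A second Irak4 probe gave 0.23 and did not pass (adjusted p over all probes tested = 0.22), whereas other probes of Ripk1 (0.80) and Irak1 (0.22 and 0.47) passed where the brightest did not. With 4 Gy serum 1 of the 21 was higher, Traf2 (0.28 ± 0.07, adjusted p = 0.0277), and 0 were lower, where 4.5% and 1.47% of all genes were.

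Of 10 receptor genes 0 were higher and 3 lower with 8 Gy serum, near the 28.8% of all genes that were lower, with a median log2 change of −0.15. A second probe of Tnfrsf11a, the receptor RANK, was higher, at 0.81 (adjusted p over all probes tested = 5.18e-05), where the brighter one gave −0.22 and did not pass. The log2 change was −0.73 ± 0.15 (adjusted p = 0.000681) for Tnfrsf12a, the receptor of the cytokine TWEAK, −0.42 ± 0.08 (adjusted p = 0.000343) for Tlr4, the receptor of bacterial lipopolysaccharide, and −0.27 ± 0.10 (adjusted p = 0.0357) for Tnfrsf1a, a receptor of tumour necrosis factor. With 4 Gy serum, where 4.5% of all genes were higher and 1.47% lower, Tlr4 was higher (0.31 ± 0.08, adjusted p = 0.029). Tnfrsf11a (−0.42 ± 0.11, adjusted p = 0.0262) and Tnfrsf1b (−0.32 ± 0.09, adjusted p = 0.0479) were lower. Other probes disagreed for both of the lower genes, with 0.04 for Tnfrsf11a and 0.89 for Tnfrsf1b. Of 6 tested ligand genes 0 were higher and 1 lower with 8 Gy serum (Lta, −0.28 ± 0.10, adjusted p = 0.0224), and none passed with 4 Gy serum. Of all genes 17.3% were higher and 28.8% lower with 8 Gy serum, and 5.97% passed with 4 Gy serum. Tnf was not well above background on any array of the 10-day set. Its signal in the 20-day control cultures was at least 7.75-fold that in the 10-day control cultures, a bound that was not itself tested. The fitted difference between these control groups passed (adjusted p = 2.86e-14), but it rests on those dim 10-day signals.

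Other regulators were evenly split with 8 Gy serum, 4 of 12 higher and 4 lower, where 17.3% and 28.8% of all genes were, with a median log2 change of 0.08. Bcl3, an atypical IkB protein that works with p52 and p50 dimers in the nucleus, had a log2 change of 0.75 ± 0.18 (adjusted p = 0.00245). Zc3h12a, an RNase that degrades inflammatory transcripts, had 1.18 ± 0.30 (adjusted p = 0.00357). Nkiras1, a small GTPase-like protein that binds IkB proteins, had −0.47 ± 0.13 (adjusted p = 0.0063) and Commd1, which promotes turnover of p65, had −0.35 ± 0.11 (adjusted p = 0.018). Pdlim2 had −0.44 ± 0.10 by its brighter probe and 0.42 by another, so it has no settled direction. Cyld, a deubiquitinase that restrains the pathway, gave −0.16 by its brighter probe, which did not pass, and 0.85 by another (adjusted p over all probes tested = 2.5e-06), and Tax1bp1, a partner of A20, gave 0.20, which did not pass, and 0.83 (adjusted p over all probes tested = 0.000405). By their brightest probes none of the 12 passed with 4 Gy serum, where 5.97% of all genes did. The other Cyld probe was lower there (−0.38, adjusted p over all probes tested = 0.0371).

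Among 27 tested genes listed as NF-kB targets, 9 were higher and 4 lower with 8 Gy serum, where 17.3% and 28.8% of all genes were. That is 13 in all, where 46.0% of all genes passed, with a median log2 change of 0.43. With 4 Gy serum 0 were higher and 1 lower, where 4.5% and 1.47% of all genes were, with a median of 0.27. Lcn2, an iron-scavenging acute phase protein, had a log2 change of 3.21 ± 0.85 with 8 Gy serum (adjusted p = 0.00492). Saa3, a serum amyloid A made outside the liver, had 2.39 ± 0.74 (adjusted p = 0.0126). With 4 Gy serum they had 2.53 ± 0.85 (adjusted p = 0.0848) and 2.02 ± 0.74 (adjusted p = 0.109), which did not pass. The difference between responses passed for neither (Lcn2 0.67 ± 1.21, adjusted p = 0.699, and Saa3 0.37 ± 1.04, adjusted p = 0.815). Among the 27 targets that difference passed upward for 3 and downward for 3, where it did for 12.2% and 22.0% of all genes. The next values are again those with 8 Gy serum. The matrix protease Mmp13 had 1.53 ± 0.36 (adjusted p = 0.00212), and the adhesion molecule Icam1 had 1.07 ± 0.21 (adjusted p = 0.000506). The chemokine Cxcl12 had 0.70 ± 0.12 (adjusted p = 0.000181), though another of its probes gave 0.22 and did not pass. Plau, the urokinase gene, was lower at −0.55 ± 0.10 (adjusted p = 0.000305), where another probe gave −0.23 and did not pass. Irf1, an interferon regulatory factor, was counted as lower at −0.26, but its other probe was higher at 0.77 (adjusted p over all probes tested = 1.01e-05), so it has no settled direction. For Bcl2l1, which encodes the survival protein Bcl-xL, the brightest probe gave 0.15 and did not pass, while its other probes were higher at 0.73 and 1.31. With 4 Gy serum the 1 called target was Csf1, a macrophage growth factor (−0.34 ± 0.09, adjusted p = 0.0275). The same lists, taken between control groups, had 12 targets higher and 2 lower in the 20-day than in the 10-day control cultures, along with 8 of 10 receptor genes higher and 0 lower, where 37.0% of all genes were higher and 29.4% lower. The 14 macrophage markers were higher by a median log2 change of 4.23 in that comparison, and their part in these counts was not tested. Irf1 was counted as higher there (0.65), while its other probe was lower (−0.67, adjusted p over all probes tested = 1.31e-05).

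**Figure D5:**
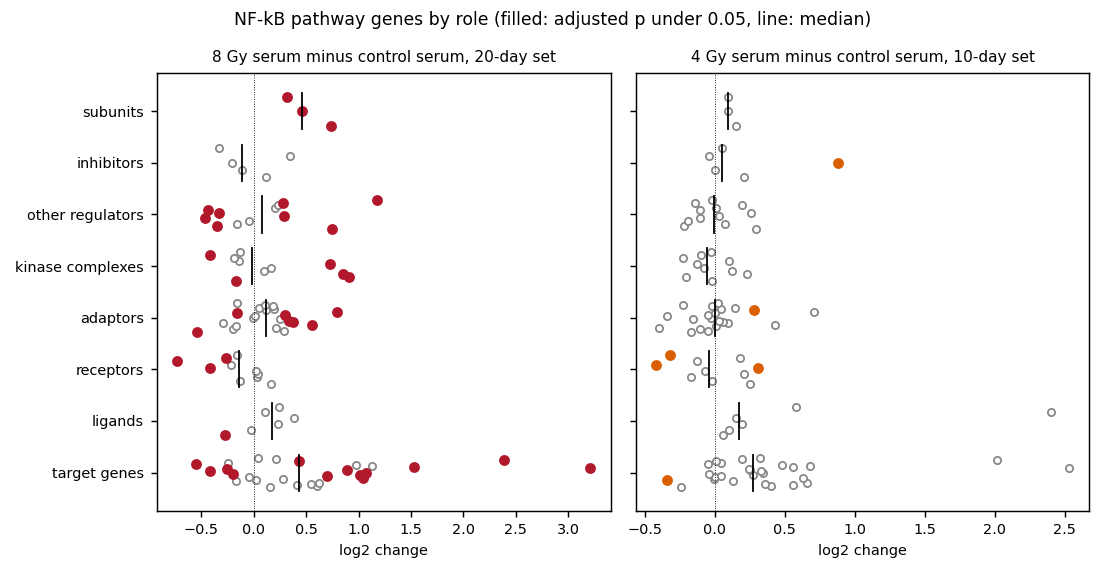
Log2 change (horizontal axes) of each tested NF-kB pathway gene by role (vertical axis), with 8 Gy serum in the left panel and 4 Gy serum in the right panel; filled points have an adjusted p under 0.05 and the line is the median of the list. With 8 Gy serum all 3 subunit genes and 9 of 27 target genes are filled to the right of 0, and with 4 Gy serum 0 of both. Of all genes 17.3% were called higher with 8 Gy serum and 4.5% with 4 Gy serum.

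The named genes whose signal followed each NF-kB gene most closely over the 20 arrays were found by the root mean square difference after centring each gene on its own mean. These arrays share slides, sets and serum groups, so a small difference is a description of pattern only. For Nfkb2 they were Mfsd5 (0.0981), Fbxw5 (0.100) and Tbc1d17 (0.104), against a spread of Nfkb2 itself of 0.327. Fbxw5 averaged 0.69 with 8 Gy serum and −0.02 with 20-day control serum, against 0.71 with 4 Gy serum and 0.61 with 10-day control serum, the same low 20-day control mean. For Rela they were Vasp (0.0805), Prr12 (0.0904) and Slc38a10 (0.091), against a spread of 0.346. For Nfkbia they were Cdc42ep2 (0.134), Rab9 (0.139) and Haghl (0.14), against 0.427. Nfkbie was followed less closely, by Gna15 at 0.247 against its own spread of 0.573, and Relb by Uqcc1 at 0.123 against 0.173. Mrps23 was closest to Nfkbib (0.132), Atg2b to Nfkbiz (0.215) and Bahd1 to Tnfaip3 (0.152). Among the 8 tested NF-kB genes, none was among the 3 closest of another.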

How the data were processed

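Groups and replicate numbers came from the sample titles. Per the file headers, the deposited scanner files hold processed intensity values after Agilent Feature Extraction 10.5.1.1 (the submitters' processing notes name 11.0), with background subtracted by the authors' scanner software and no scaling between arrays. The deposited files also hold 0 or 1 quality marks of another kind (well above background, saturated, non-uniform), and no spot was saturated. From 50 to 181 of 43379 spots per array, marked non-uniform or population outlier, were left out, and spots of 1 probe were averaged as log2 values. The 75th percentile of the array was 731.37 to 1464.27 intensity units and was subtracted on the log2 scale, and 56.8% to 67.2% of probes were well above background. The number of arrays limits the precision.

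Probes carry accessions, of which RefSeq (GRCm38.p6) named 24844 of 41174. The files give no coordinates, and the array design names mm9. Probes well above background on all 5 arrays of some group were tested, and of several probes the one with the brightest mean signal was used for the gene. Limma 3.58.1 in R 4.3.3 fitted 4 group means to all 20 arrays (lmFit and eBayes, two-sided), tested first on simulated data. At least N-fold marks a bound against the dimmest probes above background.

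The authors' deposited table of log2 values correlated with these signals at 0.9956 to 0.9997 per array after the same centring per set (column medians −0.115 to 0.225). It was used as an alternative within each set, since its centring within each set bars comparisons between sets. Other alternatives were 4 scalings, normexp (offset 50), 2 filters, the mean of a gene's probes, only the groups compared, the slide as a block, the replicate number as a block and leaving out each array. Normexp used the median spot signal and the median background, since the files hold no mean signal.

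Deviations from the group means of same-numbered 8 Gy and 20-day control arrays correlated at 0.14 to 0.407, above 0.1 in every pair, so by that rule the numbers were taken to pair these arrays, although the labels state no shared animal or day. The same-numbered array gave the highest correlation only for replicates 1 and 5, so the correlations do not establish pairs. The other comparisons did not meet the rule.

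The 10 genes, the pathway lists and the marker lists were chosen with earlier results of these data known, and the target list contains genes other studies tie to NF-kB. The named pathway genes are up to 6 of each list with the smallest p past the threshold in a comparison, plus the 3 named genes most like each NF-kB gene.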

Additional observations from a re-analysis of the deposited data

Results flagged for a closer look

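Single arrays stood apart from the other 4 of their group by Dixon's 95% criterion in 4 of the 36 sets of 5 values examined, where chance alone marks about 1 set in 20. Nfkbib had 2.20 on 20-day control array 1, against 1.19 to 1.47 on the other 4. It had 0.91 on 4 Gy serum array 1, above the other 4 at 0.75 to 0.79. Nfkbie had −1.47 on 10-day control array 5, which is the control array that shares a slide with 4 Gy serum arrays, against −2.00 to −1.85 on the other 4. Nfkb2 had 1.39 on 10-day control array 4, against 1.12 to 1.19.

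The response to irradiated serum differed between the sets for 2 genes by a test of the difference itself in the main fit. Under some other processings Rela and Relb also passed that test. For Nfkb2 the 20-day response exceeded the 10-day response by a log2 value of 0.59. For Nfkbie the difference was −1.09, and it lost its call with the slide as a random block.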

How the results depend on the processing

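Over the NF-kB genes, 464 log2 changes were recomputed under alternatives that keep every array. Of these 426 were counted as unchanged, 10 lost their call, 21 gained one, 5 moved beyond the spread and 2 reversed. Unchanged values kept their side of the threshold, and their direction if they passed, or stayed within the spread. Both reversals were Nfkbie with 4 Gy serum, at −0.04 with the slide as a fixed block and −0.04 within slide 2. Apart from these reversals, 30 values that passed in neither setting changed sign, none over 0.26 in size. Such a change of sign was not counted as a reversal.

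With 4 Gy serum 1208 genes passed, and 786 with the stricter filter, 2577 with only the groups compared, 1 with the slide as a random block, 20 with it as a fixed block and 2573 in the authors' deposited table. Leaving out 1 array gave 219 to 2109: fewer than 1208 without any of control arrays 1 to 4 or 4 Gy serum arrays 3 to 5, and 2003 and 2109 without 4 Gy serum arrays 1 and 2. The NF-kB genes called higher there were 1, but 0 without the filter and 0 with the slide as a random or as a fixed block, and 0 to 1 without 1 array. With the slide as a random block 5912 of 9310 genes passed with 8 Gy serum, and 3622 of 6914 in the difference between responses.

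With 8 Gy serum 0 NF-kB genes were called lower, but 1 (Tnfaip3) with the array median and 1 with quantile normalization, and 0 to 1 without 1 array. In the difference between responses 1 was called higher, but 3 with the percentile over common probes, 3 with cyclic loess, and 2 with quantile normalization, normexp or the mean of a gene's probes; without 1 array it was 1 to 2. The 1 called lower there became 0 with the slide as a random block and 1 to 2 without 1 array. Between control groups 2 were called lower, but 4 with the percentile over common probes or cyclic loess, and 2 to 3 without 1 array. Between irradiated groups 1 was called lower, but 0 with the array median, normexp or the slide as a random block, and 0 to 1 without 1 array. The cause of these shifts was not tested.

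The share of called genes that were higher was 75.4% with 4 Gy serum but 56.3% with the array median, 61.8% with quantile normalization, 63.9% with only the groups compared and 63.6% in the authors' deposited table. With 8 Gy serum it was 37.5%, but 22.6% with the array median and 55.9% with the percentile over common probes. In the difference between responses it was 35.7%, but 53.5% with that percentile. Between control groups it was 55.7%, but 43.7% with the percentile over common probes, 68.2% with normexp and 65.9% without the filter, and between irradiated groups 50.4%, but 61.9% with normexp. The median of all genes moved by over 0.1 with 8 Gy serum (−0.142 with the array median, 0.13 with common probes), in the difference (0.127 with common probes) and between control groups (0.13, −0.176 and 0.157 with the array median, common probes and normexp).

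With the replicate block 9486 genes passed with 8 Gy serum, and the log2 changes of Nfkb2 (0.74, adjusted p = 4.04e-05), Rela (0.46, adjusted p = 0.00799) and Relb (0.32, adjusted p = 0.00829) kept their calls. Nfkbiz between control groups gained one under the replicate block (−0.48, adjusted p = 0.0217), and it changed no other NF-kB call. In the 10-day set, where the numbers did not meet the rule for pairs (correlations −0.0549 to 0.18), the replicate block gave 1578 called genes. Rel, near the floor of detection, could not be compared at this signal.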
